A study of Mus musculus with 2 samples.

Results

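The histone genes of mouse spleen were followed across 2 RNA-seq libraries. A gene was taken when its symbol began with Hist1h to Hist4h, H2af or H3f3, or was H1f0 or H1fx, which gave 86 genes of the 43346 Ensembl genes in the deposited tables. Of these, 67 carried a Hist symbol and are called replication-dependent here, and 19 were variant genes. The class follows the symbol alone, so it also holds pseudogenes, and no variant gene of type H2B or H4 came under it. The symbols Hist1h2bh, Hist1h2bm and Hist2h2bb matched no identifier in the tables and were not analysed here. The tissue was the spleen of a single C57BL/6J male, 10 weeks old, and its poly(A)-selected RNA was sequenced, with no treatment or altered allele in the labels. Its libraries are labelled technical replicates 1 and 2 of biological replicate 1, and the second was made in 2015, after the study that first used the other. There is thus 1 animal and 1 library on each side, every comparison is between these libraries and not between conditions, and no p-value is given.

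Replication-dependent histone genes supply the core and linker histones that package newly copied DNA. They lie in clusters, most have no introns, and their mRNAs are the animal mRNAs known to end in a short stem-loop in place of a poly(A) tail. The stem-loop is bound by SLBP, and the U7 small nuclear RNP directs the cut just after it. Variant histones such as H3.3, H2A.Z and macroH2A are placed in chromatin outside S phase by their own chaperones. The genes of these variants give ordinary polyadenylated mRNAs, with introns in many cases. Some replication-dependent genes also make longer, polyadenylated transcripts that read past the stem-loop, which are known from cells that have left the cell cycle. Poly(A) selection is known to recover the stem-loop mRNAs poorly.

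The 3′ ends of the annotated transcripts show this difference in letters. The stem-loop was searched for as 6 bases that start with GG and end with T, a 4-base loop that starts with T, and the reverse complement of the first 6 bases, a pattern settled after the sequences were seen. It was found in 44 of the 67 replication-dependent genes and in 1 variant gene, H2afx. Of these 45 genes, 24 shared the letters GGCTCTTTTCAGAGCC, among genes of H1, H2A, H2B and H3, and a further 7, all for H4, had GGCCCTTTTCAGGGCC. Per transcript, 62.5% of 72 replication-dependent transcripts held it, against 0.305% of 58708 protein-coding transcripts of other genes. Within 100 bases of the 3′ end it was found in 30.6% of the replication-dependent transcripts and in 7 of those 58708. The lines below give the stem-loop in capitals with 5 bases on each side, as DNA, 5′ to 3′ on the transcript's strand (GENCODE M21 transcripts, GRCm38/mm10). They were chosen to set transcripts that stop soon after the stem-loop beside those that run on.
Hist2h2aa2: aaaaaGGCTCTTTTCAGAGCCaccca
Hist1h4h: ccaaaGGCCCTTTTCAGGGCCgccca
Hist1h1c: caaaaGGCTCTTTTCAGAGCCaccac
Hist1h4i: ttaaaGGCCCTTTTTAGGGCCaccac
Hist3h2a: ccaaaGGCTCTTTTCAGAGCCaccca
Hist2h4: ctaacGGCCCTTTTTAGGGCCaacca
H2afx: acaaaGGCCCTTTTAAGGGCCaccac

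After the last printed base-paired letter the Hist2h2aa2 transcript (chr3:96239779-96239804, minus strand) runs on for 35 bases and the Hist1h4h transcript (chr13:23531453-23531478, plus strand) for 46 bases. The Hist1h1c transcript (chr13:23739507-23739532, plus strand) runs on for 840 bases and that of Hist1h4i (chr13:22040961-22040986, minus strand) for 330 bases. Those of Hist3h2a (chr11:58955167-58955192, plus strand), Hist2h4 (chr3:96262934-96262959, minus strand) and H2afx (chr9:44335235-44335260, plus strand) run on for 1643, 1257 and 822 bases. Each of these places lies after the coding sequence in a single-exon transcript, in its 3′ untranslated region. The letters of the stem-loop itself do not set the groups apart: Hist2h2aa2, Hist1h1c and Hist3h2a have the same 16 bases. The next lines give the last 30 bases of some annotated transcripts that hold a poly(A) signal there (AATAAA or ATTAAA, in capitals). The genes are among those whose reads are described below, and ends without a signal are not shown.
Hist1h1c-201: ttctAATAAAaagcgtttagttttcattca
Hist1h4i-201: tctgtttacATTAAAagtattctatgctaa
Hist2h2be-201: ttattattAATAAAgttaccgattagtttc
H2afj-201: aggacaAATAAAgaatatattacaaatctg
H3f3a-205: tgaaaaatAATAAAagtaccaatagaagaa

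These ends lie at chr13:23740338-23740367, chr13:22040636-22040665, chr3:96223709-96223738, chr6:136810045-136810074 and chr1:180800832-180800861, in the order shown. One of the signals stood in the last 60 bases of 27.8% of replication-dependent transcripts, 25.6% of variant transcripts and 51.0% of protein-coding transcripts of other genes. Many variant transcripts in these counts are short retained-intron or unproductive models that end inside the gene. Protein-coding transcripts with many counts lacked a signal there too, among them H3f3a-201, H3f3b-202, H2afy-201, H2afy-202 and H2afv-201. Of the replication-dependent genes described below, Hist1h2bc had none.

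The libraries held 27528810 and 3806385 counts assigned to Ensembl genes, so replicate 1 was 7.23 times deeper. A 0 allows up to 3 counts, which is 0.109 CPM (counts scaled to the same library total) in replicate 1 and 0.788 CPM in replicate 2, and this and every interval below cover counting error only, since reads from PCR are not independent molecules. Over the 12467 genes tested (those averaging 1 TPM or more and holding 50 counts or more in the libraries together) the ratio between the libraries moved with base composition. With TMM scaling its median was -1.66 on the log2 scale in the lowest of 10 equal bins of GC content and 2.27 in the highest. All 6 B cell markers listed were detected in both libraries, with a summed TPM of 3064 and 1248. Their TPM moved both ways, with Cr2 going from 734 to 62.2 and Pax5 from 56.4 to 80.1. Erythroid markers summed to 35980 TPM in replicate 1 and 214219 in replicate 2. Most of that difference was the globin gene Hba-a1, at 21651 and 195490 TPM, while Hbb-bs had 13808 and 17876. Among small RNAs that have no poly(A) tail, Rn7sk had 4 and 402 counts, and the near-identical pair Rn7s1 and Rn7s2 had 12 and 134 counts each. These are the 3 of 16 listed that were tested, and they passed the filter through replicate 2, while 11 of the 16 were at 0 in replicate 1 and 10 in replicate 2.

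Variant genes made up most of the histone RNA recovered by poly(A) selection in both libraries. TPM, a level corrected for transcript length and library total, summed to 2279 over the variant genes and 86.4 over the replication-dependent genes in replicate 1, and to 663 and 87.7 in replicate 2. The replication-dependent share of histone TPM was thus 3.65% in replicate 1 and 11.7% in replicate 2. In counts it was 4.64% (exact 95% interval 4.45 to 4.83) and 8.25% (7.52 to 9.02). The replication-dependent sum was nearly the same in both libraries on the TPM scale, and the variant sum was not. On that scale most genes were lower in replicate 2: the median log2 TPM ratio of all tested genes, with a pseudocount of 1, was -2.10. In CPM the replication-dependent genes summed to 79.2 and 114, and the variant genes to 1629 and 1268. H3 variants gave 1765 of the variant TPM in replicate 1 and 210 in replicate 2, while H2A variants gave 495 and 442. H3 of either class was 74.6% of all histone TPM in replicate 1 and 28.5% in replicate 2, and H2A was 21.3% and 63.0%.

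**Figure D1:**
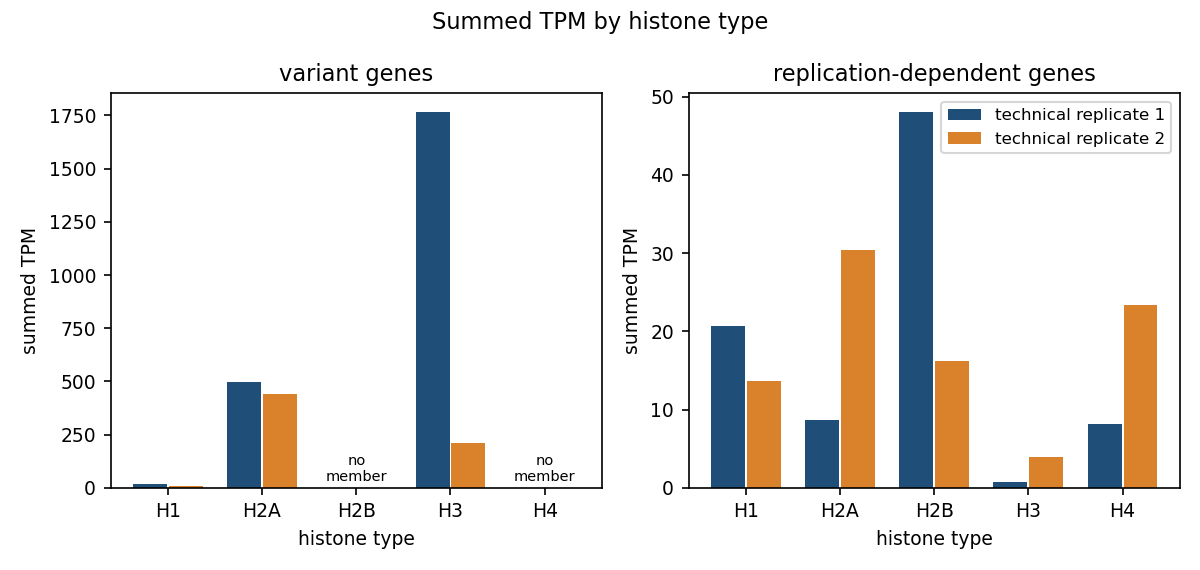
Summed TPM (vertical axes, from 0, with different scales) of the variant genes (left) and replication-dependent genes (right) by histone type, 1 bar for each library with no error bar. Variant H3 falls from 1765 to 210 between the bars, while replication-dependent H2A goes from 8.65 to 30.5 and H2B from 48.01 to 16.3. Of the 30.5, 17.3 is Hist2h2aa2, whose count is uncertain.

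Among the replication-dependent genes the types also changed places. H2B genes summed to 48.01 TPM in replicate 1 and 16.3 in replicate 2, and H1 genes to 20.7 and 13.6. H2A genes summed to 8.65 and 30.5 TPM, and H4 genes to 8.19 and 23.4. Of the H2A sum in replicate 2, 17.3 TPM was Hist2h2aa2, whose count is uncertain, as described below. The first place of H2A in replicate 2 depends on that gene. Replication-dependent H3 genes gave 0.77 and 4 TPM, the lowest sum of the 5 types in each library, so that 0.0436% and 1.87% of H3 TPM came from them. For H1 the classes were closer: replication-dependent genes held 52.3% of H1 TPM in replicate 1 and 55.5% in replicate 2.

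Few replication-dependent genes had any reads. At least 1 count was found for 18 of 67 in replicate 1 and for 18 of 67 in replicate 2, of which 10 were found in both, and 41 had none in either. Of the 19 variant genes, 12 and 10 had a count. For protein-coding genes outside the histone families the shares were 73.8% in replicate 1 and 59.97% in replicate 2, and for those under 700 bases, as most replication-dependent genes are, 39.1% and 30.2%. No count in either library was found for 5408 of these 21397 genes, and for 788 of the 1345 under 700 bases. The 49 replication-dependent genes without a count in replicate 1 had deposited upper TPM bounds between 0.228 and 1.19, and the 49 without one in replicate 2 had bounds between 0.302 and 6.85. Chromosome 13 held 54 of the genes, with counts for 11 in replicate 1 and 13 in replicate 2. The 9 genes on chromosome 3 included 4 and 3 with counts. Genes known from the male germ line (Hist1h1t, Hist1h2aa, Hist1h2ba, H2afb1, H2afb2 and H2afb3) were at 0 in both libraries, as were 4 of 5 germ cell markers in replicate 1 and 5 of 5 in replicate 2.

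**Figure D2:**
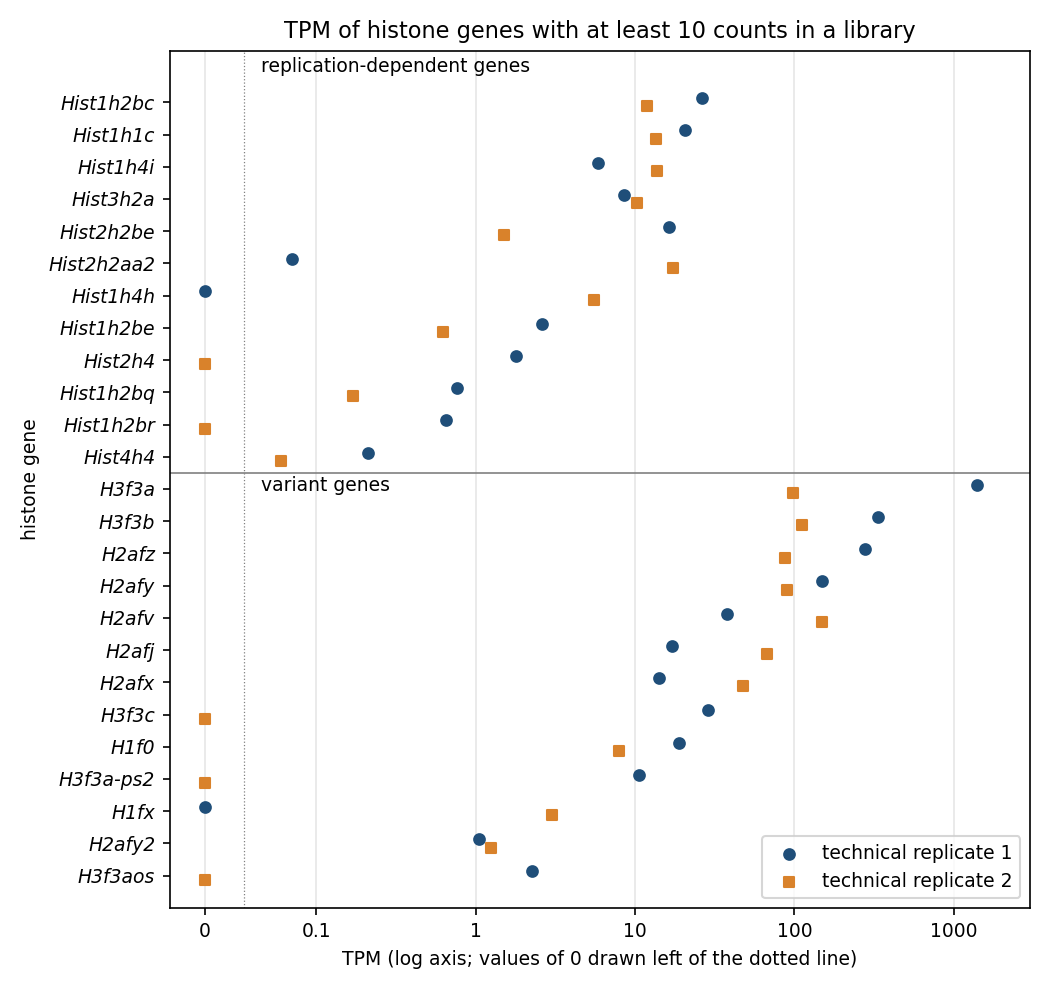
TPM (horizontal log axis, with 0 drawn at the left) of the 25 histone genes that had at least 10 counts in a library, circles for replicate 1 and squares for replicate 2, in 2 blocks by class. H3f3a stands highest in replicate 1 at 1391 TPM, and in replicate 2 the upper variant genes lie close together between 47.9 and 149 TPM.

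The genes encoding the H3.3 variant, H3f3a and H3f3b, make the same protein from separate loci and were the highest histone genes in replicate 1. H3f3a (chr1:180800832-180813943, minus strand) had 22395 counts and 1391 TPM in replicate 1, and 466 counts and 97.4 TPM in replicate 2. H3f3b (chr11:116021912-116027962, minus strand) had 11434 counts and 333 TPM, then 1416 counts and 112 TPM. H3f3a stood 77th of all genes by TPM in replicate 1 and 575th in replicate 2, while H3f3b stood 320th and 500th. The pair changed order between the libraries. In counts, H3f3a was 1.96 times H3f3b in replicate 1 and 0.329 times in replicate 2, a 5.95-fold shift (exact 95% interval 5.34 to 6.64) that no library scaling can alter. In TPM the ratio went from 4.18 to 0.868.

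Among loci tied to H3f3a by sequence or position, 3 had reads in replicate 1 and none in replicate 2. The H3f3c locus, annotated as a pseudogene, had 121 and 0 counts, and the antisense gene H3f3aos had 117 and 0. The pseudogene H3f3a-ps2 had 44.6 and 0 counts and was not tested, and at the depth of replicate 2 its ratio could reach 0.57 on the log2 scale with TMM scaling, so no fall is shown. Of the 50-base windows of H3f3c, 73.8% also occur in other genes, H3f3a first among them, and for H3f3a-ps2 this share is 82.0%. The deposited posterior standard deviation of the H3f3c count in replicate 1 was 17.3, so the authors' counting could place part of H3f3a's reads there. H3f3aos overlaps H3f3a on the other strand over 168 bases, and since the sources used here do not say whether the counting used strand, reads from that overlap cannot be told apart. Only 5.04% of its windows occur in other genes, and the posterior standard deviation of its count in replicate 1 was 0. H3f3c and H3f3aos passed the filter on low values through replicate 1 alone.

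H2A.Z, the variant placed at promoters by the SRCAP complex, comes from H2afz and H2afv. H2afz (chr3:137864487-137866922, plus strand) had 4572 and 401 counts, with 277 and 87.2 TPM. H2afv (chr11:6427229-6444443, minus strand) had 462 and 391 counts, with 37.7 and 149 TPM. H2afv was thus a minor source in replicate 1 and, by TPM, the highest histone gene of all in replicate 2. By TPM it stood 362nd among all genes there, after 3811th in replicate 1. Of its 149 TPM in replicate 2, 140.5 came from the 519-base transcript H2afv-201. By counts in replicate 2 it was below H3f3b, with 391 against 1416. H2afz counts were 9.90 times those of H2afv in replicate 1 and 1.03 times in replicate 2, a 9.65-fold shift (8.12 to 11.5).

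H2afx and H2afj were higher in replicate 2 by every scaling tried. H2A.X, which is phosphorylated around DNA breaks, is encoded by H2afx, a single-exon gene with both a stem-loop and a long polyadenylated form (chr9:44334694-44336077, plus strand). It had 324 and 351 counts and 14.2 and 47.9 TPM, nearly the same count from libraries 7.23-fold apart in depth. H2afj, whose protein H2A.J is known to build up in senescent cells, had 531 and 671 counts and 17.0 and 67.5 TPM. With TMM scaling H2afj was 21.9-fold higher in replicate 2 (log2 ratio 4.45, interval 4.29 to 4.62), the highest ratio of the tested histone genes, and H2afx 18.8-fold (4.23, 4.01 to 4.45). Against H2afz in the same library, H2afj counts went from 11.6% to 167% and H2afx counts from 7.09% to 87.5%.

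The macroH2A genes carry a large globular domain after the histone part. H2afy (chr13:56073619-56136361, minus strand) had 4052 and 998 counts and 149 and 89.7 TPM. H2afy2, which encodes macroH2A2, had 40 and 15 counts and 1.05 and 1.25 TPM. H2afy outnumbered H2afy2 101-fold and 66.5-fold in counts, and the interval of the change between libraries, 0.353 to 1.29, includes 1. H2afy was higher in replicate 2 with TMM scaling (2.10, 1.99 to 2.20) and by total counts (0.83, 0.73 to 0.93), but not on the TPM ratio with a pseudocount of 1 (-0.73).

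The linker variants stood below both H3.3 genes, both H2A.Z genes and H2afy in TPM in each library. H1f0, the H1.0 gene that is known to rise as cells stop dividing, had 759 and 100 counts and 18.9 and 7.91 TPM. H1fx had 0 and 19 counts, with 0 and 2.99 TPM, and by the 3 counts that a 0 allows it was at least 110-fold higher in replicate 2 with TMM scaling and at least 45.8-fold by total counts. The exact interval, which also counts the error of the 19, starts at 6.34 on the log2 scale with TMM scaling. H1fx was below the filter of 50 counts, so this ratio is a description.

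Replication-dependent H2B genes held the most reads of their class in replicate 1. Hist2h2be (chr3:96221119-96223738, plus strand) had 759 and 22 counts, with 16.3 and 1.51 TPM. Hist1h2bc (chr13:23684199-23692908, plus strand) had 273 and 42 counts, with 26.2 and 11.9 TPM. Hist2h2be fell relative to Hist1h2bc from 2.78 to 0.524 in counts, a 5.31-fold shift (3.03 to 9.50). These genes encode near-identical proteins, and neither has an exact match to the stem-loop pattern in the annotated transcript, but Hist2h2be ends in a poly(A) signal and shares no 50-base window with another gene.

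Hist1h2be had 97 and 8 counts and 2.62 and 0.62 TPM, and its reads were mostly not those of the H2B mRNA. In replicate 1, 89.6% of its counts (exact interval 81.9 to 94.9) were assigned to the noncoding transcript Hist1h2be-203 (chr13:23618980-23621078, minus strand), which lies away from the H2B coding end of the gene. In GENCODE M21 this transcript overlaps Hist1h1e on the same strand over 450 bases. The counts used a Hist1h1e model of 748 bases, against 1930 in M21, so this overlap may not hold for them. Hist1h1e, with 32.0% of the windows of its M21 transcript shared, was given 1 and 0 counts. The coding transcripts had 10.1 counts in replicate 1 and 6 in replicate 2. Below the filter, Hist1h2bq had 27.6 and 2 counts and Hist1h2br had 15.4 and 0. These share 97.3% and 88.7% of their windows with other genes, with posterior standard deviations of 8.64 counts for each in replicate 1, so how their reads divide is uncertain.

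The main replication-dependent linker histone gene was Hist1h1c (chr13:23738808-23740367, plus strand), with 536 and 114 counts and 20.5 and 13.6 TPM. It was the only one of 6 replication-dependent H1 genes with at least 10 counts, and Hist1h1a, Hist1h1b and Hist1h1t had none. Next to the variant H1f0 it went from 0.706 to 1.14 in counts, a 1.61-fold shift (1.19 to 2.18). Its annotated transcript reads 840 bases past the stem-loop to the AATAAA printed above.

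For H2A, the gene with most reads in both libraries was Hist3h2a, outside the large cluster, at 321 and 121 counts and 8.58 and 10.3 TPM. It starts at the same base as Trim17 (chr11:58954685-58973098, plus strand), and 31.5% of its windows are shared, but Trim17 itself was given only 7 and 2 counts. Hist2h2aa2 had 0.45 counts in replicate 1 and 39.9 in replicate 2, where its 17.3 TPM made it the highest replication-dependent gene. All of its windows recur elsewhere, first in its neighbours Gm20632, Gm20633 and Gm20634, and its posterior standard deviation in replicate 2 was 6.41 counts. Hist2h2aa1, its near-identical twin, was given 0 in both libraries, with a deposited upper bound of 6.85 TPM in replicate 2. How the counts divide among Hist2h2aa2, Hist2h2aa1 and Gm20634, which was given 106 and 19.1 counts, is therefore uncertain. The antisense genes over the pair, Gm20633 and Gm20632, had 56.6 and 29.4 counts in replicate 1 and 0 in replicate 2. They extend beyond the H2A genes and had a posterior standard deviation of 0.49 counts each in replicate 1, and without known strand reads from the overlap itself cannot be told apart.

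Among H4 genes, Hist1h4i had 60 and 48 counts and 5.85 and 13.8 TPM, and it had the highest ratio of the tested replication-dependent genes (3.79, interval 3.22 to 4.37, with TMM scaling). Hist2h4 had 49 and 0 counts, Hist4h4 11 and 1, and Hist1h4h 0 and 11.0. None of these 3 reached the filter, and at the lower depth of replicate 2 neither Hist4h4 (0.66, interval -4.77 to 3.44, with TMM scaling) nor Hist2h4 (interval reaching 0.44) was shown to be lower there. No replication-dependent H3 gene reached 10 expected counts in either library: the highest were Hist2h3c2, with 9.29 and 2 counts, Hist2h3c1, with 5.59 and 0, and Hist1h3c and Hist1h3g, each with 0 and 3. Hist2h3c1 shares all of its windows, among others with the overlapping Gm20634. Its deposited posterior mean in replicate 1 was 47.8 counts with a standard deviation of 24.02, so its count of 5.59 is very uncertain.

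Which replication-dependent genes were read differed between the libraries by gene length. Of the 48 with a deposited length under 700 bases, 3 had a count in replicate 1 and 9 in replicate 2, although replicate 1 was the deeper. Of the 19 with at least 700 bases, 15 had a count in replicate 1 and 9 in replicate 2. The short genes together had 12 and 74 counts and the longer genes 2168 and 360. The short genes were 0.554% of the longer genes' counts in replicate 1 and 20.6% in replicate 2, a 37.1-fold shift (19.7 to 75.7), and 17.1-fold (8.51 to 36.5) without Hist2h2aa2. This boundary was chosen after the values were seen.

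**Figure D3:**
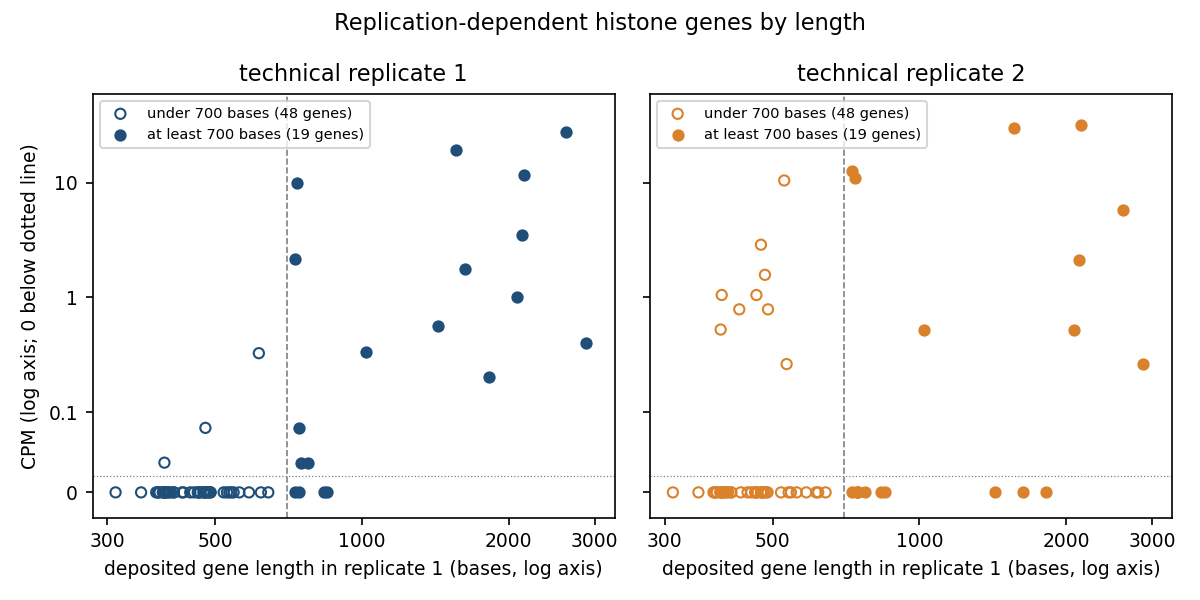
CPM (vertical log axis, 0 drawn below the dotted line) against deposited gene length (horizontal log axis) for the 67 replication-dependent genes in each library, open for genes under 700 bases and filled for the rest. In replicate 1 only 3 open points lie above the dotted line, and in replicate 2 there are 9.

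A split by the 3′ end, over many of the same genes, is no separate support. Among genes whose transcript has the same length in the tables and in the sequence file, 17 have the stem-loop within 100 bases of the end, and these had no gene with a count in replicate 1 and 5 in replicate 2, 53 counts in all, or 4 genes with 13 counts without Hist2h2aa2. The 10 that run on for at least 100 bases included 8 with a count in replicate 1 and 4 in replicate 2, with 991 and 285 counts. Short genes outside the histone families gained in counts too, but not in how many had a count, which was 39.1% of them in replicate 1 and 30.2% in replicate 2. The 1345 other protein-coding genes under 700 bases gained 18.4-fold in counts on the 20052 longer ones from replicate 1 to 2, and 8.22-fold with globin and erythroid genes left out. Of those tested, 72.4% of 322 short genes were higher in replicate 2 with TMM scaling, against 27.3% of 11293 longer ones. The part of length, of RNA without a poly(A) tail and of base composition in the histone result was not tested.

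Each tested histone gene was then compared between the libraries. A gene was called when the whole exact 95% counting interval of its ratio lay past 1.5-fold after TMM scaling. Of all 12467 genes, 28.0% were called higher in replicate 2 and 32.6% lower. Of the 6 replication-dependent genes tested, 4 were called higher (Hist1h4i, Hist3h2a, Hist1h1c and Hist1h2bc) and 0 lower, with Hist2h2be at -0.99 (-1.67 to -0.38) and Hist1h2be at 0.52 (-0.74 to 1.55). Of the 11 variant genes tested, 7 were called higher (H2afj, H2afx, H2afv, H2afy2, H2afy, H1f0 and H3f3b), 3 lower (H3f3a, H3f3c and H3f3aos), and H2afz was not called at 0.61 (0.45 to 0.75). The median ratio was 1.65 for the tested replication-dependent genes, 1.19 for the variant genes and -0.27 for all genes. H3f3c and H3f3aos are not protein-coding and passed the filter through replicate 1 alone. Of the 9 protein-coding variant genes tested, 7 were called higher and 1 lower, at a median of 2.10.

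**Figure D4:**
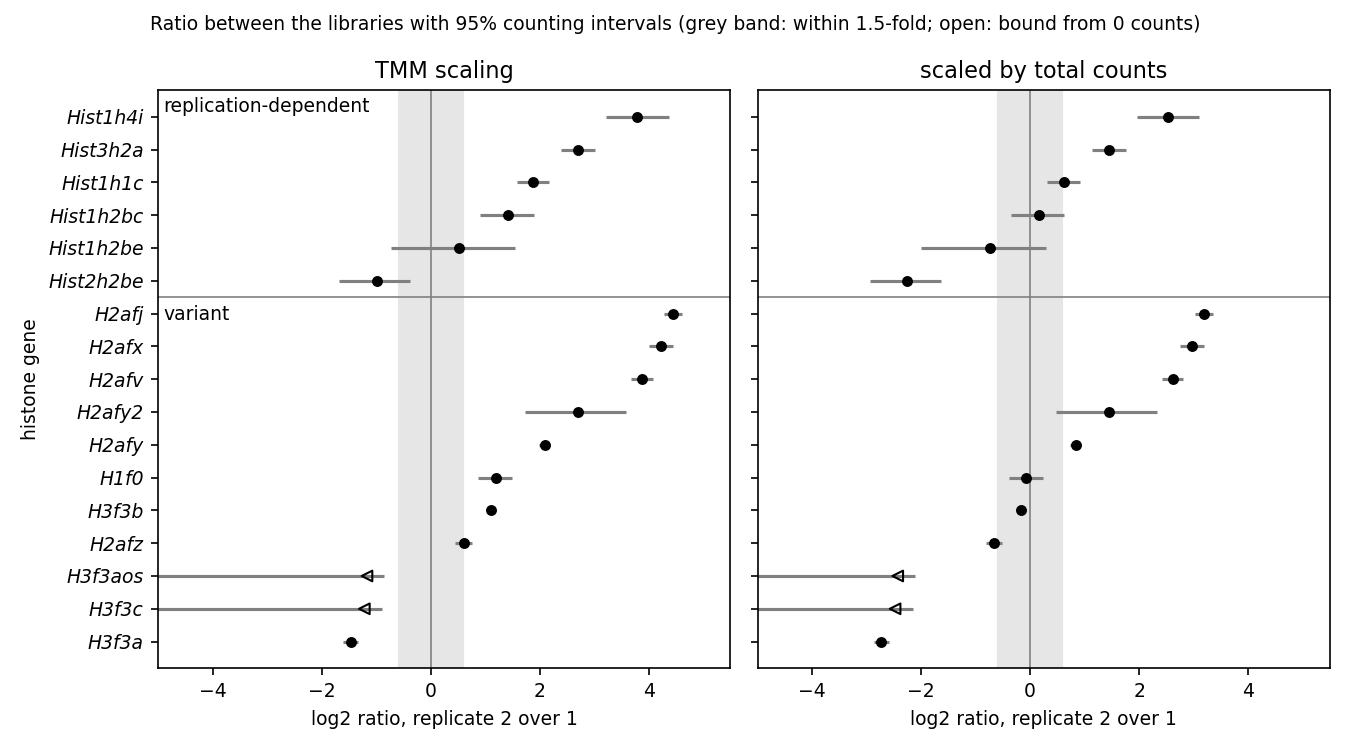
Log2 ratio of replicate 2 over replicate 1 (horizontal axis) for the 17 tested histone genes with exact 95% counting intervals, with TMM scaling (left) and scaled by total counts (right). The order is the same in both panels and every point stands 1.26 lower on the right, so that H1f0 and H3f3b cross 0.

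Scaling decided several of these directions. Scaling by total counts lowers every log2 ratio by 1.26, and 14.6% of all genes were then called higher and 58.5% lower. By total counts 2 replication-dependent genes were higher (Hist1h4i and Hist3h2a) and 1 lower (Hist2h2be), and 4 variant genes were higher (H2afj, H2afx, H2afv and H2afy) and 3 lower. H1f0, H3f3b, H2afz and Hist1h2be changed sign between these scalings. On the TPM ratio with a pseudocount of 1, where the median of all tested genes was -2.10, H2afy, Hist1h1c and Hist1h2bc were negative as well (-0.73, -0.55 and -1.08). H3f3a was 2.77-fold lower in replicate 2 with TMM scaling (-1.47, -1.61 to -1.34) and lower still by total counts (-2.73), and for H3f3c and H3f3aos, at 0 in replicate 2, the floor gives at least 2.32-fold and at least 2.25-fold lower with TMM scaling, with exact intervals that end at -0.90 and -0.85. When the median of each of the 10 GC bins was taken off, 4 replication-dependent and 7 variant genes were again called higher and 0 and 3 lower. Of all 12467 genes, 3497 were then called higher and 3134 lower. H2afx, in the highest GC bin at 62.3%, went from 4.23 to 1.96, whereas H2afv went from 3.88 to 4.53 and Hist3h2a from 2.71 to 3.79.

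Summed over the classes, replication-dependent counts were 4.86% of variant counts in replicate 1 and 8.99% in replicate 2, a ratio of ratios of 1.85 (exact 95% interval 1.66 to 2.06). In counts that difference came with H3f3a, which held 22395 of the 44852 variant counts in replicate 1. Without H3f3a the ratio of ratios was 1.02 (0.918 to 1.14), an interval that includes 1. On the TPM scale it was 3.49 with all genes and 1.60 without H3f3a.

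The mix of transcripts changed inside variant genes. The shares here are of expected counts, which the authors' model divides among transcripts that share most of their sequence, and their binomial intervals leave that division out. For H3f3b, H3f3b-201 had 11403 counts in replicate 1 and 0 in replicate 2, and H3f3b-202 had 5.18 and 1348 (99.7% and 0% against 0.0453% and 95.2%), with posterior standard deviations between 6.72 and 28.5 counts. These transcripts have the same coding sequence of 408 bases, and H3f3b-202 adds 5′ exons at chr11:116025305-116025455 and chr11:116027856-116027962. It also has 340 bases against 126 in the exon that ends at chr11:116024379, and its 3′ end is at 116021912 in place of 116021961. The H3.3 message of H3f3b was thus assigned to a transcript that differs at both ends in each library.

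H2afy makes alternative macroH2A1 proteins through exons that exclude each other. H2afy-201 holds the 100-base coding exon at chr13:56089758-56089857, and H2afy-202 the 91-base exon at chr13:56088252-56088342. In M21 they also differ in a 5′ exon, with 286 bases in H2afy-201 and 185 in H2afy-202. The counts used an H2afy-202 model of 2037 bases, against 1933 in M21. Which of these differences set the assignment was not tested. H2afy-201 had 2987 and 0 counts and H2afy-202 had 546 and 990, so the second went from 13.5% (12.4 to 14.6) of the gene's counts to 99.2% (98.4 to 99.7). In replicate 2 the posterior standard deviation of each was 82.1 counts, which is wide beside the 0 given to H2afy-201. H2afy retained-intron transcripts H2afy-203 and H2afy-206 had 286 and 104 counts in replicate 1 and 0 in replicate 2.

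The H2A.Z genes showed the same kind of shift. H2afz-201 had 4324 and 199 counts and H2afz-207, which holds 61 of the 130 bases of the coding exon at chr3:137866011-137866140 and ends sooner, had 23.1 and 201.8. Its share went from 0.505% (0.319 to 0.754) to 50.3% (45.4 to 55.4), with posterior standard deviations of 16.9 and 19.4 counts. H2afv-201, which lacks the 114-base coding exon at chr11:6433724-6433837 and has a shorter end, went from 36.9% (32.4 to 41.4) of counts to 81.1% (76.8 to 84.8). For H3f3a, H3f3a-201 kept a like share, 48.8% and 53.8%, while the long form H3f3a-205 went from 31.5% to 17.0% and the retained-intron transcript H3f3a-202 from 0.462% to 21.6%. H3f3a-207 went from 19.2% to 7.61%, and the retained-intron transcript H2afz-203 from 4.20% to 0%.

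**Figure D5:**
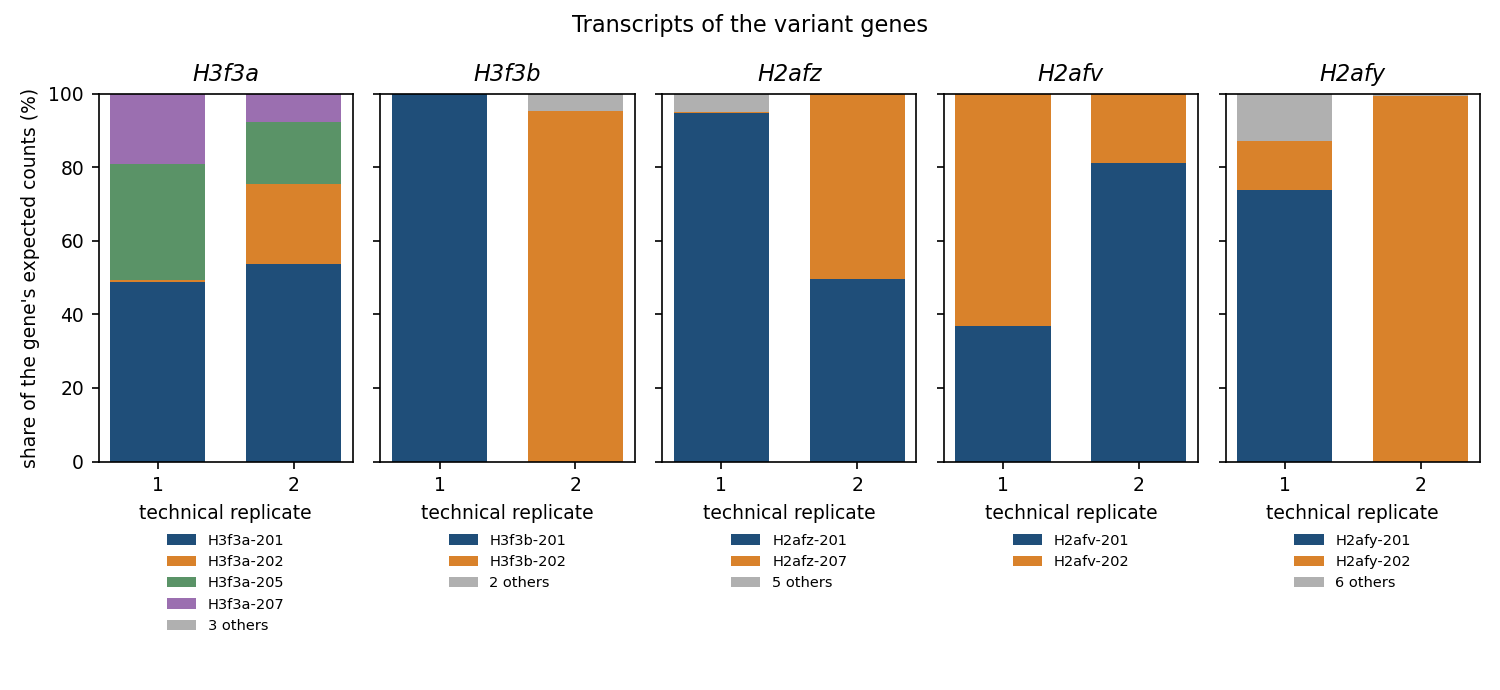
Share of each gene's expected counts (vertical axis, percent) assigned to its transcripts in each library, as stacked bars for 5 variant genes, with transcripts under 10% in both libraries pooled in grey. H3f3b goes from 99.7% H3f3b-201 to 95.2% H3f3b-202, and H2afy from 73.7% H2afy-201 to 99.2% H2afy-202.

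Listed genes that make, end and carry histones had reads in both libraries, other than Zfp473 of the 3′ end list, with 61 and 0 counts, and 1 gene of that list that was not analysed here. Of 21 listed genes for 3′ end processing and transcription of histone genes 19 were tested, and with TMM scaling 4 were called higher and 6 lower, at a median of -0.03 against -0.27 for all genes. Slbp, whose protein binds the stem-loop, had 2431 and 210 counts and was not called (0.58, 0.37 to 0.79), and Cstf2t, a factor of poly(A) site cleavage, was higher (2.44, 2.31 to 2.57). Of 22 histone chaperones all were tested, 2 were called higher and 6 lower, at a median of -0.26. Npm1 and Nap1l1, the most abundant of them, were not called at 0.24 and 0.14, and Rbbp7, a histone-binding subunit of several chromatin complexes, was lower at -1.76. Of 25 genes of S phase and proliferation 8 were called higher and 4 lower, at a median of 0.25. Pcna, the sliding clamp of DNA replication, was not called (0.39), while Mki67 and Top2a were lower at -2.03 and -1.48. By total counts 1, 0 and 2 genes of these lists were higher and 12, 17 and 11 lower. Pcna stood at 187 and 41.6 TPM, and Mki67 at 54.3 and 2.48. Transcripts of proliferation genes were thus present in both libraries, where 41 of the 67 replication-dependent histone genes had no count in either. The same held for 5408 of 21397 protein-coding genes outside the histone families. Among those under 700 bases it held for 788 of 1345, a share near that of the histone genes.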

How the data were processed

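RNA from the spleen was poly(A)-selected and sequenced as 2 libraries of 1 animal, labelled with a size range of 350 to 450. The authors' deposited gene and transcript tables hold expected counts, TPM, FPKM, isoform percent values and other columns (lengths, posterior standard deviations and TPM bounds), on mm10 with GENCODE M4 per the file deposited with the tables; aligner, quantifier and strand setting are not given in the sources used here. Expected counts were rounded. Gene identifiers were matched to GENCODE M21, which named 42462 of 43346 genes, and sequences came from its transcripts, of which 89 of 115 had the deposited length. Ratios were scaled with edgeR TMM (4.0.16, R 4.3.3), and exact intervals came from scipy 1.17.1. The interval code was tested on simulated data. DESeq2 (1.42.0) size factors, total counts, TPM ratios, other filters and thresholds, and GC and length adjustment were tried. The rule named every tested member, other members with at least 10 counts, and at most 6 genes of each list by TPM. Other genes (Hist2h3c2, Hist2h3c1, Hist1h3c, Hist1h3g, Trim17, Gm20632, Gm20633, Gm20634, Hist1h1e, Zfp473 and Hist genes at 0) were named after their values were seen. The members and lists were chosen with earlier results of these data known.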

Additional observations from a re-analysis of the deposited data

How the results depend on the processing

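Of 165 recomputed ratios of single histone genes, 127 kept their direction and their side of the threshold, 1.5-fold or, in that setting, 2-fold. Another 13 were no longer called, 4 became called and 21 changed sign. Settings that change only the filter, threshold or interval reuse the same ratio, so no sign could change in them. The 17 ratios with no filter beyond 1 count and the 12 with at least 200 counts were the same by construction. By total counts the sign changed for H1f0 (-0.070), H2afz (-0.66), H3f3b (-0.16) and Hist1h2be (-0.75). On the TPM ratio with a pseudocount of 1, then 0.1, it changed for H1f0 (-1.16, -1.25), H2afy (-0.73, -0.73), H2afz (-1.65, -1.66), H3f3b (-1.56, -1.57), Hist1h1c (-0.55, -0.58), Hist1h2bc (-1.08, -1.13) and Hist1h2be (-1.16, -1.92). The median TPM ratio of all tested genes was -2.10 with a pseudocount of 1. With the GC median removed Hist2h2be went to 0.092, and with the GC and length median removed to 0.20, where H2afz went to -0.88. Of replication-dependent genes, 2 were higher and 1 lower by total counts, 1 higher and 3 lower on the TPM ratio with either pseudocount, and 12 higher with no filter beyond 1 count. Of variant genes, 4 were higher by total counts, and 3 were higher and 7 lower on the TPM ratio with either pseudocount. Over all 12467 tested genes, 1820 were higher and 7295 lower by total counts. On the TPM ratio 1047 were higher and 10073 lower with a pseudocount of 1, and 1101 and 10166 with 0.1. With no filter beyond 1 count, 4572 of 20488 genes were higher. Lower variant genes numbered 1 with at least 200 counts, 1 with a 2-fold threshold and 1 with 99% intervals. Among all genes the lower calls in these settings were 3812 of 10574, 3136 of 12467 and 3625 of 12467. The ratio of ratios of replication-dependent over variant genes was 3.49 on summed TPM, 1.06 without Hist1h2bc and H3f3a, and 1.02 without H3f3a, the last tried after seeing the data. The replication-dependent share of TPM in replicate 1 was 6.35% without Hist1h2bc and H3f3a. Other than for the H3f3a settings, whose construction removes the most abundant variant gene, the cause was not tested. Leaving out a library leaves 1 library and no comparison. No paired analysis was possible because there is 1 group of libraries. Depth limits replicate 2, where a histone gene at 0 may hold up to 0.788 CPM.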
